A study of Homo sapiens with 12 samples.

Results

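The 10 genes described here encode the nuclear lamins (LMNA, LMNB1, LMNB2), the HP1 proteins (CBX1, CBX3, CBX5), the H3K9 methyltransferases SUV39H1 and SUV39H2, the H3K27 methyltransferase EZH2 and the chromatin protein HMGB2. They were taken by gene symbol from a table of read counts in 12 libraries. All 10 were found, each on 1 of the 60605 lines of that table, and all 10 were among the 15179 genes that passed the filter on low counts. The cells were ARPE-19, an established cell line derived from human retinal pigment epithelium (RPE). WT denotes cells for which the labels name no introduced open reading frame (ORF). The other groups are stable lines named GFP, GSTA4 and OSK, sampled after 4 days of ORF expression: green fluorescent protein as the control ORF, glutathione S-transferase alpha 4, and the reprogramming factors POU5F1 (OCT4), SOX2 and KLF4. The same 4 days are recorded for the WT samples. Each group had 3 libraries. The labels do not say whether these came from separate cultures or how many clones a line comprised, so p-values measure the spread between these libraries, and the effect of an ORF cannot be told apart from other differences between lines.

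Lamins are intermediate filament proteins that form a meshwork under the inner nuclear membrane. A-type lamins come from LMNA by splicing, and the B-type lamins from LMNB1 and LMNB2. Compact heterochromatin is anchored to this meshwork: SUV39H1 and SUV39H2 trimethylate histone H3 at lysine 9, HP1 proteins bind that mark, and EZH2, the catalytic subunit of Polycomb repressive complex 2 (PRC2), trimethylates lysine 27. LMNB1 and HMGB2 are known to be lost from senescent cells, and LMNB1, EZH2, HMGB2 and SUV39H1 are commonly higher in dividing than in resting cells.

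The ORF genes stood where the labels put them. GSTA4 had 416 CPM (read counts scaled by TMM to a common library size) ± 17.6 (SD, n = 3) in its own line and at most 22.5 CPM in any other library, and POU5F1, SOX2 and KLF4 had 779, 628 and 928 CPM on average in OSK. Total counts ran from 12630675 to 17045454 reads per library. A library with 0 reads of a gene could still hold up to 3 counts' worth of it, or 0.177 to 0.228 CPM, by counting error alone. In GFP replicate 1, 27349 genes with a symbol were detected, while the remaining 11 libraries had 19488 to 22073. WT replicate 1 stood farthest from its own group. Calls that changed without either library are given with the value from all libraries and the changed value or range. Changes of sign are given as values or ranges. Of 15 RPE markers, 11 or 12 had at least 1 CPM in each group, led by the keratin KRT8. Their summed level was 1402 to 1470.1 CPM in OSK, 1578 to 1650.2 in GSTA4, 2192 to 2526 in GFP and 2422 to 2661 in WT. KRT8 weighs most in this sum, with 501 CPM in OSK, 679 in GSTA4, 843 in GFP and 1247 in WT. In GFP against WT, 9 of the 12 tested RPE markers were higher and 2 lower, beside 11% and 11.2% of all tested genes. Of the visual cycle genes that define RPE, RPE65 averaged at most 0.495 CPM in any group, RLBP1 0.692 to 5.24 and LRAT 1.05 to 14.3. RDH5 was highest in OSK, at 13.5 CPM, beside 5.51 in GSTA4, 4.96 in GFP and 3.05 in WT. TTR averaged at most 0.114 CPM in any group and was at 0 in GSTA4. The summed level of 4 leukocyte markers was at most 1.06 CPM in any library. Summed levels of 10 mesenchymal markers were 1001 to 1034 CPM in OSK, 1451 to 1637 in GSTA4, 1592 to 1780.01 in GFP and 1372 to 1740.3 in WT. Of the 7 tested, 6 were lower and 1 higher in OSK against GFP. Of 12 tested RPE markers, 11 were lower and 1 higher there. Over all tested genes, 22.8% were lower and 23.1% higher in that contrast. Of 4 endothelial markers, KDR had 23.4 CPM in OSK, 37.2 in GSTA4, 62.0 in GFP and 79.2 in WT on average. VWF went the other way between WT and OSK, with 2.04 CPM in OSK, 0.459 in GSTA4, 1.29 in GFP and 0.249 in WT. Its levels in GFP replicates 1 to 3 were 2.66, 0.788 and 0.408 CPM. PECAM1 averaged at most 0.373 CPM in any group, and CDH5 was at 0 in OSK and GSTA4. That highest PECAM1 mean was the one of GFP, from 0.912, 0.0717 and 0.136 CPM in replicates 1 to 3. Of 10 pluripotency genes, OSK had the introduced POU5F1 and SOX2, DNMT3B at 2.35 CPM (1.19 in WT, 2.61 in GFP), LIN28A at 0.0685 and SALL4 at 0.0235. The other 5, NANOG, DPPA4, TDGF1, UTF1 and ZFP42, were at 0 reads there. Mitochondrial genes took 6.81% to 6.89% of reads in OSK, 7.55% to 7.82% in GSTA4, 6.05% to 6.54% in GFP and 5.99% to 6.06% in WT. The part of these markers and shares in the results below was not tested.

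Promoter sequences are shown for 3 members that followed different courses: LMNB1, whose 4 groups did not overlap, EZH2, which was higher in GFP and OSK than in WT, and CBX3, which was lowest in OSK. They come from RefSeq (GRCh38.p14), where 9 of the 10 symbols matched and the other was HMGB2, and each runs 5′ to 3′ on the gene's strand from 250 bases before to 50 bases after an annotated start. Capitals mark matches on either strand to the CCAAT box, to the E2F element (TTTCCCGC, TTTCGCGC, TTTGCCGC or TTTGGCGC) or to the cell cycle homology region (TTTGAA). The windows are chr5:126776886-126777185 on the plus strand, chr7:148884242-148884541 on the minus strand and chr7:26201193-26201492 on the plus strand.
LMNB1: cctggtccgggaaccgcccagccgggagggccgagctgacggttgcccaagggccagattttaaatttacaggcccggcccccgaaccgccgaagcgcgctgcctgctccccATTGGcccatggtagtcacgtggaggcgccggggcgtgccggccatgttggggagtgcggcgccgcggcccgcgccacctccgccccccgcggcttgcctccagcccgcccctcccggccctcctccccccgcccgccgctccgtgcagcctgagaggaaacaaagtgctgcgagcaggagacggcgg
EZH2: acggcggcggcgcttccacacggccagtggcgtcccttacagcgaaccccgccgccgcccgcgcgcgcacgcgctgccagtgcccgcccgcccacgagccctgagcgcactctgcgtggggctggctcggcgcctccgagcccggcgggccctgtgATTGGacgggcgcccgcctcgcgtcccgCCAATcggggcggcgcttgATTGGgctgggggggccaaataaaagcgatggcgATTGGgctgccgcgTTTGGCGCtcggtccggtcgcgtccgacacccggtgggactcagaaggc
CBX3: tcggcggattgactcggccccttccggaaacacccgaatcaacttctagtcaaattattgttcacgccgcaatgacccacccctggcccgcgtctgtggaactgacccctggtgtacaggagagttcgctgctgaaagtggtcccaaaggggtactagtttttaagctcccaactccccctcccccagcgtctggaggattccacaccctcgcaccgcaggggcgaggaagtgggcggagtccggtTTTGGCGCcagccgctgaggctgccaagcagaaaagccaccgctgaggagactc

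The EZH2 window held 4 CCAAT boxes and 1 E2F element. The LMNB1 window held 1 CCAAT box and no other match, and the CBX3 window 1 E2F element. Among the 35116 promoter windows of the table, 34.6% held a CCAAT box, 3.31% an E2F element and 15.2% the cell cycle homology region. LMNB1 and EZH2 have 2 annotated windows each and gene-level counts do not tell which start was used, so a match describes these letters only. Within 100 bases of the annotated start that each window is built on, GENCODE release 29 places 3 coding starts for LMNB1, 4 for EZH2 and 0 for CBX3.

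Of the 10 genes, 9 differed among the 4 groups (edgeR quasi-likelihood F test, Benjamini-Hochberg adjusted p under 0.05), where 66.9% of all tested genes did. SUV39H1 was at the margin, with an adjusted p of 0.0496, and SUV39H2 was the exception (adjusted p 0.164). In GFP against WT, 3 members were higher and 0 lower, where 22.2% of all tested genes were called (11% higher, 11.2% lower). In GSTA4 against GFP, 0 were higher and 2 lower (29.2% of all genes, 14.7% higher and 14.6% lower). In OSK against GFP, 5 were higher and 2 lower (45.9%, 23.1% higher and 22.8% lower). In OSK against GSTA4, 5 were higher and 2 lower (47.8%, 24.1% higher and 23.8% lower). In GSTA4 against WT, 2 were higher and 0 lower (38.6%, 19.7% higher and 19% lower). In OSK against WT, 6 were higher and 2 lower (45.4%, 22.7% higher and 22.7% lower). Groups did not overlap for 3 members in GFP against WT (34.6% of all genes), 4 in GSTA4 against GFP (42.3%) and 7 in OSK against GFP (54.7%). The same held for 8 members in OSK against GSTA4 (58%), 3 in GSTA4 against WT (49%) and 9 in OSK against WT (53.5%). The median log2 fold change of the 10 genes was 0.28 in OSK against GFP and 0.04 in GSTA4 against GFP, beside -0.02 and 0.01 over all tested genes. The contrasts share their control libraries and are given side by side.

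**Figure D1:**
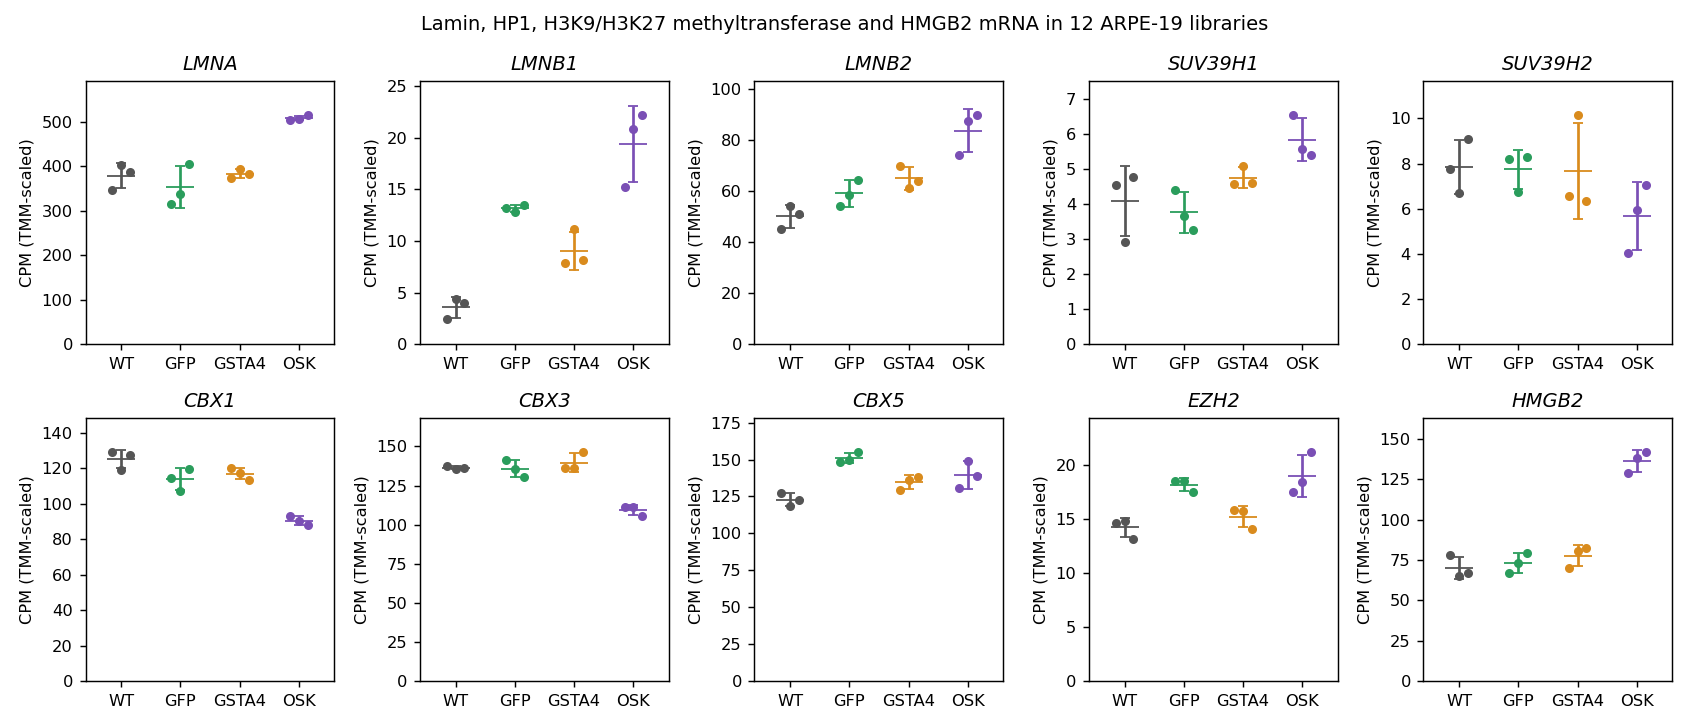
Level of each of the 10 genes in every library (points, CPM after TMM scaling, vertical axes from 0) by group, with the mean and SD of 3 libraries (bars). LMNA, LMNB2 and HMGB2 were highest and CBX1 and CBX3 lowest in all 3 OSK libraries, while LMNB1 stood at 2.43 to 4.33 CPM in WT and 15.2 to 22.2 in OSK.

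LMNB1 had the largest fold changes of the 10 genes against WT. Its levels were 2.43, 4.33 and 3.95 CPM in WT replicates 1 to 3, and 13.2, 12.8 and 13.5 in GFP. In GSTA4 they were 7.88, 11.2 and 8.12 CPM, and in OSK 15.2, 20.8 and 22.2. The 4 groups did not overlap, in the order WT, GSTA4, GFP, OSK. LMNB1 was 3.70-fold higher in GFP than in WT (log2 fold change 1.89, SE 0.200, edgeR adjusted p 1.57e-06) and 5.46-fold higher in OSK than in WT (log2 2.45, SE 0.194, adjusted p 1.52e-09). Against GFP it rose in OSK by 0.56 (SE 0.168, adjusted p 0.00992) and fell by 0.55 in GSTA4 (SE 0.179, adjusted p 0.0264). OSK and GSTA4 differed by 1.11 (SE 0.174, adjusted p 2.13e-05). With single libraries left out, the smaller differences kept their direction and some lost their call. GSTA4 against GFP gave -0.55, -0.57 and -0.53 without GFP replicate 1, 2 or 3 (adjusted p 0.0629, 0.0501 and 0.0628), and -0.45 and -0.47 without GSTA4 replicate 1 or 3 (adjusted p 0.118 and 0.105). OSK against GFP gave 0.46 without OSK replicate 3 (adjusted p 0.0581). LMNB1 rested on 39 to 329 reads a library.

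LMNA, the most abundant of the 10 genes, moved in OSK. It had 348, 403 and 386 CPM in WT, 315, 339 and 406 in GFP, 374, 394 and 382 in GSTA4, and 505, 507 and 515 in OSK. The OSK libraries lay above the other 9, and WT, GFP and GSTA4 overlapped. The rise was 1.44-fold against GFP (log2 0.53, SE 0.0765, adjusted p 9.52e-06), 1.33-fold against GSTA4 (adjusted p 0.000148) and 1.34-fold against WT (adjusted p 0.000103). GSTA4 against GFP gave 0.12, with a 95% interval from -0.04 to 0.28 (adjusted p 0.272). Without GFP replicate 3, the highest of its group, that difference was 0.22 (adjusted p 0.0189), and GFP against WT was -0.21 (adjusted p 0.0337) instead of -0.10 (adjusted p 0.379).

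LMNB2 was highest in OSK. Its levels were 45.4, 54.1 and 51.1 CPM in WT, 54.1, 58.7 and 64.6 in GFP, 70.1, 61.2 and 64.1 in GSTA4, and 74.1, 87.4 and 89.8 in OSK. OSK lay above every other library and GSTA4 above WT, while GFP overlapped both WT and GSTA4. LMNB2 was 1.42-fold higher in OSK than in GFP (log2 0.50, SE 0.0879, adjusted p 8.6e-05) and 1.30-fold higher in GSTA4 than in WT (adjusted p 0.00208). GFP against WT gave 0.24 (adjusted p 0.0618), which came to 0.30 (adjusted p 0.0375) without GFP replicate 1 and 0.29 (adjusted p 0.047) without WT replicate 2. With library size alone, a mean of at least 1 CPM or the replicate block it was also called (adjusted p 0.0462, 0.0472 and 0.0375). Part of the LMNB2 exons, 4.73%, also lies in TIMM13, so some of its reads could belong to that gene.

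Per kilobase of exon the lamins differed widely. LMNA had 50.6 to 72.9 CPM per kilobase over the group means, LMNB2 9.24 to 15.4 and LMNB1 0.983 to 5.34, with exon lengths from GENCODE release 29. The ratio of LMNB1 to LMNA reads within a library, which does not depend on scaling, was -6.76 ± 0.337 on the log2 scale in WT (SD, n = 3), -5.42 ± 0.244 in GSTA4, -4.73 ± 0.164 in GFP and -4.73 ± 0.278 in OSK. GFP and OSK had the same mean ratio to 2 decimals, at different levels of both genes. For LMNB2 to LMNA the ratio was -2.92 ± 0.0207 in WT and -2.57, -2.56 and -2.61 in GFP, GSTA4 and OSK.

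**Figure D2:**
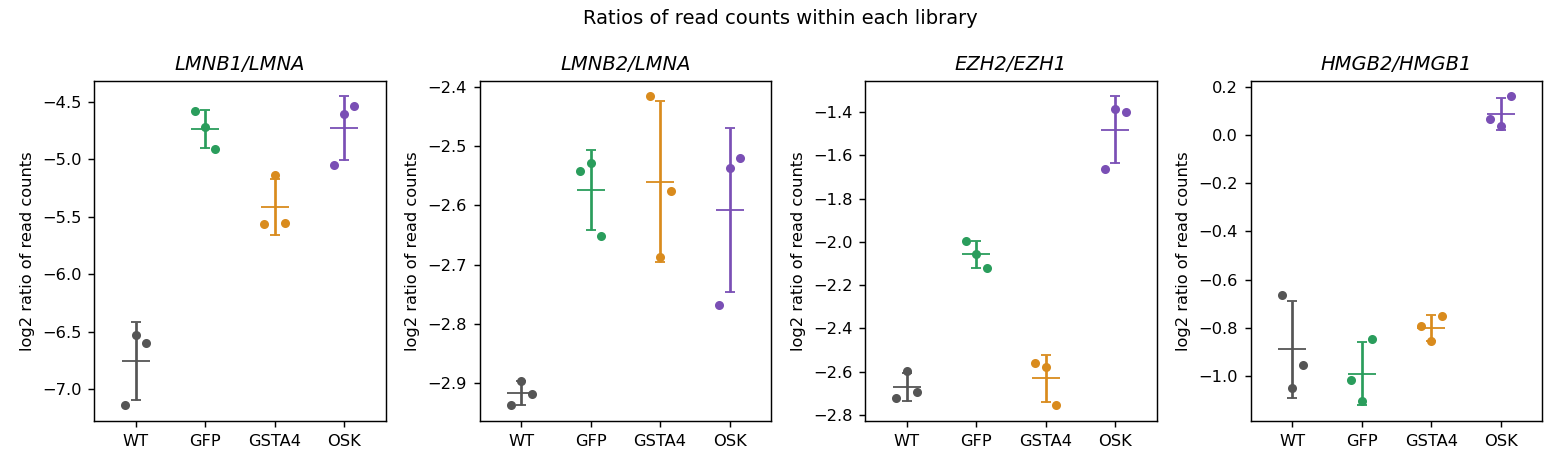
Log2 ratios of read counts within each library (points) for LMNB1 to LMNA, LMNB2 to LMNA, EZH2 to EZH1 and HMGB2 to HMGB1, with the mean and SD of 3 libraries (bars). WT was lowest for both lamin ratios, and OSK was highest for the last pair of ratios.

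The HP1 genes did not move together. CBX1 (HP1 beta) had 129, 119 and 128 CPM in WT, 115, 107 and 119.7 in GFP, 120.1, 117 and 114 in GSTA4, and 93.1, 90.5 and 87.9 in OSK. CBX3 (HP1 gamma) had 137, 136 and 136 CPM in WT, 141, 135.5 and 130.4 in GFP, 136, 137 and 146 in GSTA4, and 112, 111 and 105 in OSK. For both genes the OSK libraries were the lowest, and the other groups overlapped. CBX1 fell by 0.33 against GFP (SE 0.0602, adjusted p 0.000122), by 0.37 against GSTA4 (adjusted p 2.94e-05) and by 0.47 against WT (adjusted p 1.55e-06). CBX3 fell by 0.31 against GFP (SE 0.0567, adjusted p 0.000137), by 0.35 against GSTA4 (adjusted p 2.62e-05) and by 0.32 against WT (adjusted p 9.33e-05). Processed pseudogenes named for CBX3 held reads equal to 2.72% of its own, and those of CBX1 0.41%, so the placing of reads shared with these copies is uncertain.

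CBX5 (HP1 alpha) followed another course. It had 127, 119 and 122 CPM in WT, 149, 150.03 and 155 in GFP, 129, 136 and 138 in GSTA4, and 131, 149 and 139 in OSK. GFP lay above WT and above GSTA4 without overlap, while OSK overlapped GFP and GSTA4. CBX5 was 1.23-fold higher in GFP than in WT (log2 0.30, SE 0.0599, adjusted p 0.00129). It was 1.14-fold higher in OSK than in WT (adjusted p 0.0159), a call lost without WT replicate 2 (0.0711) or OSK replicate 2 (0.115), with library size alone (0.122) or with no filter (0.0539). In GSTA4 against GFP it fell by 0.17 (SE 0.0598, adjusted p 0.0391), and leaving out any 1 of the 6 libraries put the adjusted p between 0.052 and 0.165, and no filter at 0.156. OSK against GFP gave -0.12, with a 95% interval from -0.24 to 0.00869 (adjusted p 0.12), and -0.19 with library size alone (adjusted p 0.0132).

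The H3K9 methyltransferases had low levels, and 1 of their 12 contrasts passed the test. SUV39H1 had 5.42 to 6.55 CPM in OSK, 4.57 to 5.10 in GSTA4, 3.26 to 4.41 in GFP and 2.94 to 4.78 in WT. OSK lay above every other library, on 40 to 92 reads a library. Against GFP it rose by 0.63 in OSK (SE 0.211, adjusted p 0.0185), and the adjusted p became 0.0503, 0.0719 and 0.072 without GFP replicate 2, GFP replicate 3 or OSK replicate 1. OSK against WT gave 0.50 (adjusted p 0.0522), and without WT replicate 1 or 3 the adjusted p was 0.0483 or 0.0375. This difference was also called with the replicate number as a block (0.51, adjusted p 0.0485), with RLE scaling (0.51, adjusted p 0.0494) and without GFP replicate 1 and WT replicate 1 together (0.58, adjusted p 0.0415). An antisense gene shares 20.3% of the SUV39H1 exons, and the kit named in the labels is not stated to mark strand. SUV39H2 had 4.06 to 7.04 CPM in OSK, 6.33 to 10.1 in GSTA4, 6.74 to 8.29 in GFP and 6.68 to 9.09 in WT. Its groups overlapped, and no contrast passed the test as fitted. In OSK against GFP its log2 fold change was -0.45, with a 95% interval from -0.89 to 0.00177 (adjusted p 0.0962), and without OSK replicate 3 it was -0.62 (adjusted p 0.0438). OSK against WT gave -0.47 (adjusted p 0.0779), and -0.64 (adjusted p 0.0361) without that library, -0.54 (adjusted p 0.0442) with library size alone and -0.47 (adjusted p 0.0481) with no filter.

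EZH2 had 14.7, 14.8 and 13.2 CPM in WT, 18.6, 18.6 and 17.5 in GFP, 15.9, 15.8 and 14.1 in GSTA4, and 17.5, 18.4 and 21.2 in OSK. WT and GSTA4 overlapped at the low end, GFP and OSK at the high end, and neither of the upper groups overlapped either of the lower ones. EZH2 was 1.28-fold higher in GFP than in WT (log2 0.36, SE 0.108, adjusted p 0.0221) and 1.34-fold higher in OSK than in WT (0.42, SE 0.107, adjusted p 0.00286). OSK against GSTA4 gave 0.32 (SE 0.107, adjusted p 0.0175). GSTA4 against GFP gave -0.26, with a 95% interval from -0.48 to -0.03 (adjusted p 0.0818). Without WT replicate 3, GFP replicate 1 or GFP replicate 2, the adjusted p of GFP against WT was 0.0863, 0.0557 or 0.0708, with no filter 0.0681, and without GFP replicate 1 and WT replicate 1 together 0.0655. Without OSK replicate 3 or GSTA4 replicate 3, that of OSK against GSTA4 was 0.0936 or 0.0807, and with library size alone it was 0.0611.

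HMGB2, a protein that bends DNA, was the member with the largest change between OSK and GFP. It had 78.1, 65.2 and 67.1 CPM in WT, 67.0, 73.3 and 79.2 in GFP, 70.1, 80.7 and 82.2 in GSTA4, and 129, 138 and 142 in OSK. OSK stood apart from the other groups, which overlapped. The rise was 1.86-fold against GFP (log2 0.90, SE 0.0809, adjusted p 1.28e-08), 1.76-fold against GSTA4 (adjusted p 3.89e-08) and 1.94-fold against WT (adjusted p 3.97e-09). GFP against WT gave 0.06, with a 95% interval from -0.11 to 0.23 (adjusted p 0.649). GSTA4 against WT gave 0.15 (adjusted p 0.174), and 0.23 (adjusted p 0.026) without WT replicate 1.

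**Figure D3:**
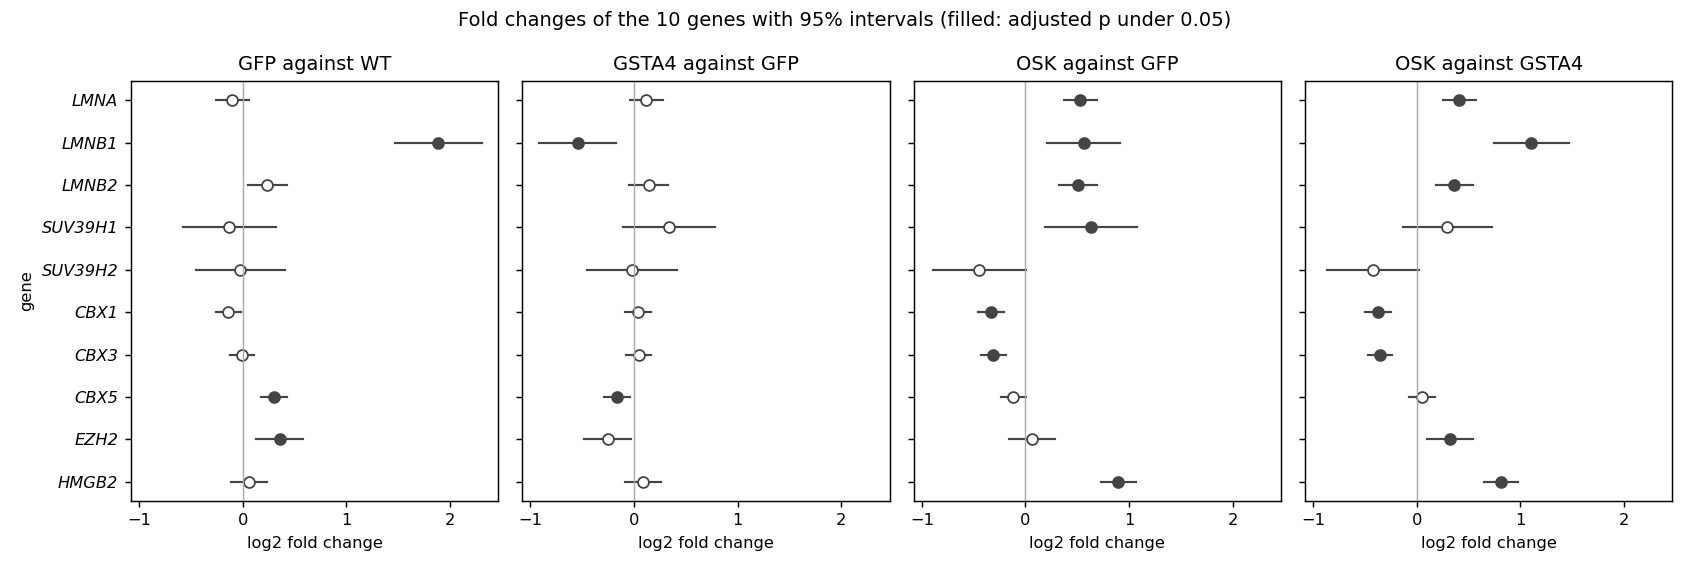
Log2 fold changes of the 10 genes in 4 contrasts (points) with 95% intervals (lines), filled where the edgeR adjusted p was under 0.05. LMNB1 moved in each contrast shown, LMNA, LMNB2 and HMGB2 rose and CBX1 and CBX3 fell in both OSK contrasts, and SUV39H2 was called in none.

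Proliferation genes moved between the same groups. Of 26 such genes, 22 were higher and 1 lower in GFP against WT, 1 higher and 9 lower in GSTA4 against GFP, and 22 higher and 0 lower in OSK against GFP. The shares over all tested genes were 11% higher and 11.2% lower, 14.7% and 14.6%, and 23.1% and 22.8%, in that order. Median log2 fold changes of the 26 genes were 1.19, -0.28 and 0.93. MKI67, the Ki-67 antigen of dividing cells, had 154 CPM ± 11.8 in OSK, 42.8 ± 3.98 in GSTA4, 57.8 ± 1.28 in GFP and 10.4 ± 3.09 in WT (n = 3 each), the group order of LMNB1. TOP2A, E2F1 and FOXM1 were highest in OSK, at 118, 36.0 and 41.2 CPM, and lowest in WT, at 9.98, 4.71 and 5.29. MKI67 rose by 2.46 in GFP against WT (SE 0.131, adjusted p 2.55e-10), where HMGB2 gave 0.06. The log2 ratio of HMGB2 to MKI67 reads was -0.17 ± 0.0422 in OSK, 0.86 ± 0.0194 in GSTA4, 0.34 ± 0.0899 in GFP and 2.78 ± 0.547 in WT. For EZH2 to MKI67 it was -3.01 ± 0.0902, -1.48 ± 0.207, -1.66 ± 0.0781 and 0.49 ± 0.509 in that order. For LMNB1 to MKI67 it was -3.00 ± 0.177, -2.25 ± 0.231, -2.13 ± 0.0297 and -1.54 ± 0.291. The part of a different share of dividing cells in the members' changes was not tested, and in bulk RNA more cells with a transcript and more transcript per cell cannot be told apart.

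Likeness of pattern was measured as Pearson's r of log2(CPM + 1) over the 12 libraries, among 11048 genes with a mean of at least 5 CPM. These values are descriptive, since the libraries fall into 4 groups. Closest to LMNB1 were the mitotic kinesin KIF11 (r = 0.980), the topoisomerase TOP2A (0.979) and UHRF1 (0.978), which maintains DNA methylation through replication. Closest to LMNA were PTPN9 (0.978), ERP29 (0.959) and RAP2B (0.956). Closest to HMGB2 were TRAM1 (0.984), PRDX6 (0.981) and STK10 (0.981). For CBX3 they were VGLL3 (0.9753), CCSER2 (0.970) and PTPN21 (0.970), each lowest in OSK. EZH2 had looser company in PSRC1 (0.919), POGLUT3 (0.918) and NEU3 (0.902).

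Among 18 genes of the nuclear envelope and lamina partners, 8 were higher and 2 lower in OSK against GFP, and 1 higher and 4 lower in GSTA4 against GFP. For these and the lists that follow, the shares over all tested genes are 23.1% higher and 22.8% lower in the former contrast, and 14.7% and 14.6% in the latter. SUN2, an inner membrane protein that links lamins to the cytoskeleton, had 798 CPM ± 62.8 in OSK, 154 ± 7.81 in GSTA4, 219.6 ± 17.4 in GFP and 338 ± 28.7 in WT. SUN2 rose by 1.86 in OSK (SE 0.0767, adjusted p 5.82e-14) and fell by 0.51 in GSTA4 (SE 0.0763, adjusted p 2.88e-05), each against GFP. SYNE2, its nesprin partner in the outer membrane, fell by 1.35 in GSTA4 against GFP (adjusted p 1.21e-11) and rose by 0.38 in OSK (adjusted p 0.000135). TMPO, which encodes the lamin-binding LAP2 proteins, fell by 0.50 in GSTA4 (adjusted p 0.00012) and had 0.15 in OSK (adjusted p 0.144). TMEM43 fell by 0.24 in GSTA4 and rose by 0.28 in OSK (adjusted p 0.0161 and 0.00279).

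Of 5 genes that process prelamin, 0 were higher and 2 lower in GSTA4 against GFP, and 1 higher and 2 lower in OSK against GFP. ICMT, the carboxyl methyltransferase of farnesylated proteins, had 210.0 CPM ± 13.3 in OSK, 119.5 ± 3.15 in GSTA4, 135.5 ± 3.52 in GFP and 167 ± 11.6 in WT. ZMPSTE24, the protease that cleaves prelamin A, had 95.4 CPM ± 2.77, 107 ± 1.94, 70.8 ± 2.40 and 90.4 ± 2.50 in WT, GFP, GSTA4 and OSK. ICMT rose by 0.63 in OSK against GFP (adjusted p 5.12e-08) while ZMPSTE24 fell by 0.24 (adjusted p 0.00172). In GSTA4 against GFP both fell, by 0.18 (adjusted p 0.0378) and 0.59 (adjusted p 1.15e-07). FNTA, a farnesyltransferase subunit, was lower in OSK than in GFP by 0.26 (log2 fold change -0.26, adjusted p 0.00615).

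Of 19 H3K9 methylation and HP1 partners, 4 were higher and 4 lower in OSK against GFP, with a median of 0.04. Over all tested genes 23.1% were higher and 22.8% lower, so these counts are near the background. EHMT2, which encodes the H3K9 methyltransferase G9a, had 57.7 CPM ± 0.903 in OSK, 93.9 ± 5.06 in GSTA4, 70.9 ± 6.78 in GFP and 77.7 ± 3.91 in WT. It rose by 0.40 in GSTA4 (adjusted p 0.000215) and fell by 0.30 in OSK (adjusted p 0.00234), both against GFP. CHAF1A, a subunit of the histone chaperone CAF-1, rose by 0.85 in OSK against GFP (adjusted p 3.32e-06), and UHRF1 by 0.60 (adjusted p 0.0134). KMT5B, an H4K20 methyltransferase, fell by 0.54 in GSTA4 and by 0.32 in OSK (adjusted p 3.97e-06 and 0.000655). Of 9 H3K9 demethylases, 4 were higher and 0 lower in OSK against GFP, and 0 higher and 2 lower in GSTA4 against GFP. KDM3A fell by 0.44 and KDM7A by 0.50 in GSTA4 (adjusted p 0.000327 and 0.00395).

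Of 13 PRC2 partners and H3K27 demethylases, 4 were higher and 5 lower in OSK against GFP, beside 23.1% and 22.8% of all tested genes. The core subunits SUZ12 and EED, named after their values were seen, did not pass the F test (adjusted p 0.596 and 0.669). EZH1, the other catalytic subunit, had 53.2 CPM ± 4.35 in OSK, 94.5 ± 0.867 in GSTA4, 75.9 ± 1.68 in GFP and 90.9 ± 5.70 in WT. EZH1 fell by 0.51 in OSK (SE 0.0698, adjusted p 4.14e-06) and rose by 0.32 in GSTA4 (SE 0.0679, adjusted p 0.00136), against GFP. The log2 ratio of EZH2 to EZH1 reads was -1.48 ± 0.155 in OSK, -2.63 ± 0.109 in GSTA4, -2.06 ± 0.0631 in GFP and -2.67 ± 0.0664 in WT (SD, n = 3). GFP and OSK each lay above WT and GSTA4 without overlap. PHF19, an accessory subunit, rose by 1.41 in GFP against WT (adjusted p 1.64e-06) and by 0.68 in OSK against GFP (adjusted p 0.000244), while EPOP fell by 0.93 in OSK against GFP (adjusted p 0.000784).

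**Figure D4:**
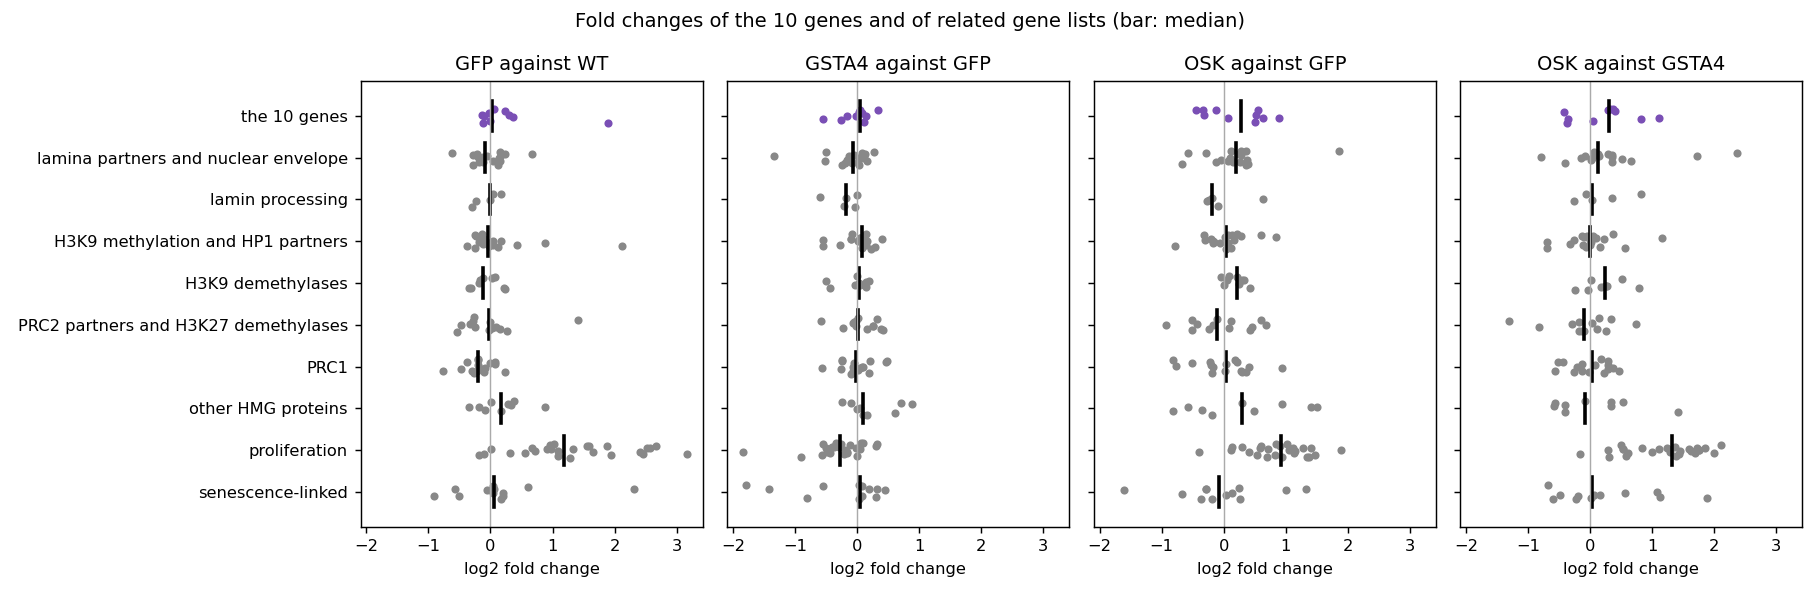
Log2 fold changes of the 10 genes and of the tested genes of 9 related lists (points, 1 per gene) with the list's median (bar) in 4 contrasts. Proliferation genes had a median of 1.19 in GFP against WT and one of 0.93 for OSK against GFP, while the heterochromatin lists lay on both sides of 0.

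Of 12 tested senescence-linked genes, 1 was higher and 4 lower in GSTA4 against GFP, and 3 higher and 5 lower in OSK against GFP. CDKN1A, which encodes the cell cycle inhibitor p21, had 154 CPM ± 6.94 in OSK, 233 ± 13.6 in GSTA4, 187 ± 21.3 in GFP and 195 ± 16.7 in WT. It rose by 0.31 in GSTA4 (adjusted p 0.00448) and fell by 0.28 in OSK (adjusted p 0.00614), against GFP. CDKN2B, which encodes p15, fell by 1.80 in GSTA4 (adjusted p 1.08e-11) and by 0.67 in OSK (adjusted p 3.81e-06). CDKN2C, an inhibitor of CDK4 and CDK6, went the other way in OSK, with a rise of 1.34 (adjusted p 1.99e-06), and IGFBP7 fell by 0.81 in GSTA4 (adjusted p 3.8e-07).

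Position was a feature the choice of members did not use. In GENCODE release 29 (GRCh38), the outermost starts of LMNA, CBX3 and CBX5 lie close to that of a protein-coding gene on the opposite strand. The distance is 575 bases for LMNA and MEX3A, 367 for CBX3 and HNRNPA2B1, and 60 for CBX5 and HNRNPA1. LMNA and CBX5 have 3 annotated promoter windows each, and gene-level counts do not tell which start was used. LMNA spans chr1:156082573-156140089, CBX3 chr7:26201162-26213356 and CBX5 chr12:54230940-54280133. These neighbours were picked by position, outside the rule for naming genes. MEX3A, an RNA-binding protein gene, had 6.06 CPM ± 0.974 in OSK, 19.4 ± 0.154 in GSTA4, 22.9 ± 1.67 in GFP and 25.2 ± 4.84 in WT. It fell by 1.91 in OSK against GFP (SE 0.146, adjusted p 1.02e-09), where LMNA rose by 0.53. HNRNPA2B1 had 0.17 in the same contrast (SE 0.0628, adjusted p 0.0364), where CBX3 fell by 0.31. HNRNPA1 fell by 0.44 (SE 0.0786, adjusted p 0.000103), where CBX5 gave -0.12. Exons of HNRNPA2B1 overlap 7.93% of the CBX3 exons, and HNRNPA1 has many processed copies, so part of the reads of both genes cannot be placed with certainty.

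**Figure D5:**
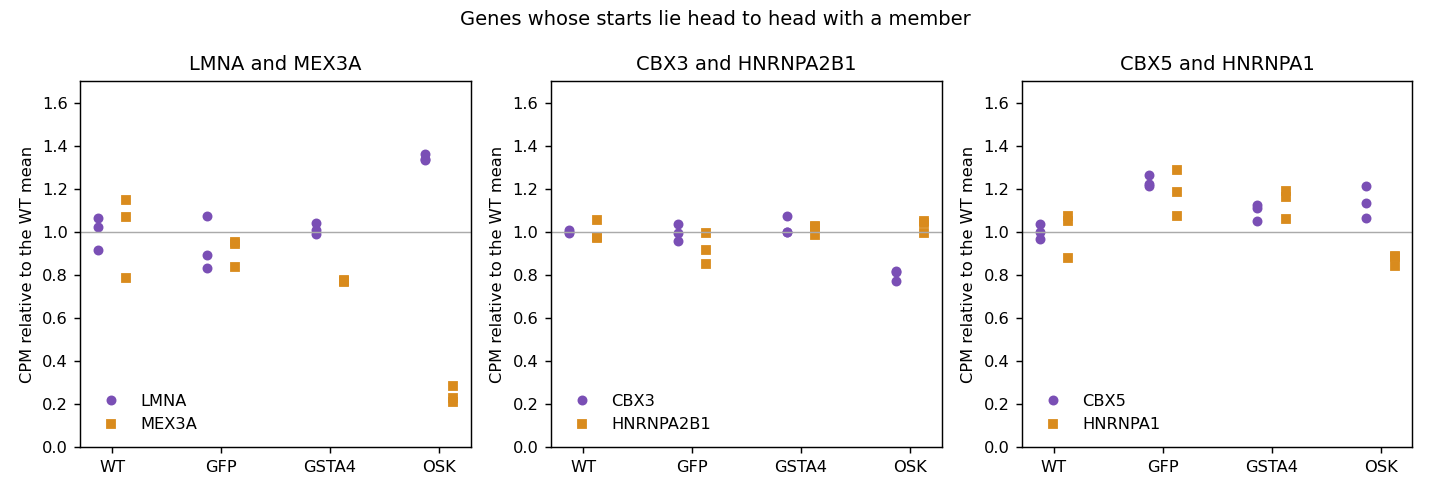
Level of LMNA, CBX3 and CBX5 (circles) and of the head-to-head gene of each (squares) in every library, relative to the gene's own WT mean. Head to head refers to the outermost annotated start of each gene. In OSK the LMNA libraries lie above and the MEX3A libraries below all others of the same gene.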

How the data were processed

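RNA was isolated with TRIzol, enriched for poly(A) and made into NEBNext Ultra II libraries, per the labels' protocols. The authors deposited raw read counts per gene. STAR 2.7.1a, featureCounts 1.6.2 and the builds GRCh38 (hg38) and GRCm38 (mm10) are named in the submitters' processing notes. Annotation release and strand setting are not given in the sources used here. Of 60605 lines, 20014 had no symbol (0.485% to 0.822% of reads) and were left out.

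Counts of the 40591 named lines were tested with edgeR 4.0.16 in R 4.3.3 (TMM scaling, filterByExpr, quasi-likelihood test, 15179 genes, 1 fit over 12 libraries, two-sided, Benjamini-Hochberg over all tested genes, threshold 0.05). SE is the log2 fold change over the root of F. CPM values are given after TMM scaling. The common biological coefficient of variation was 7.91%. Replicates differed by more than sampling noise. The tests were tried on simulated counts, where part of the changes of the size seen in most members went undetected. Far fewer genes were changed there than were called in OSK against GFP. The missed part therefore does not measure what was missed among the members.

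The members and gene lists were chosen with earlier results of these data known. The naming rule took the 10 members, the ORF genes, MKI67, CDKN1A, the 4 genes of each of 9 lists with the lowest F test p, and the 3 genes most like each of 5 members. Some genes that it named are not reported here. SUZ12, EED and the neighbours fall outside it. Alternatives were a block for the replicate number, DESeq2 1.42.0, a fit of only the 6 libraries compared, other scalings (RLE or library size alone), other filters (none, or 1 CPM on average) and each library left out. Leaving out GFP replicate 1 and WT replicate 1 together was added after seeing the data, as were the alternatives to the F test.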

Additional observations from a re-analysis of the deposited data

How the results depend on the processing

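The number of called members stayed within 1.5 times its value under every alternative for the F test, for GFP against WT and for the 3 contrasts of OSK. In GSTA4 against GFP, 2 members were called, against 1 with no filter and 0 to 1 with a library left out. In GSTA4 against WT the count of 2 became 4 without GFP replicate 1 and WT replicate 1 together. There CBX5 gave 0.15 (edgeR adjusted p 0.0459) instead of 0.13 (adjusted p 0.0906). HMGB2 gave 0.22 (adjusted p 0.0136) instead of 0.15 (adjusted p 0.174). The number of all genes called stayed within 1.5 times its value throughout. Every change of sign concerned differences that did not pass the test before or after it. With library size alone, EZH2 gave -0.00803 in OSK against GFP and CBX5 -0.0104 in OSK against GSTA4. With a mean of at least 1 CPM, CBX3 gave 0.00421 in GFP against WT. Without GFP replicate 1 and WT replicate 1 together, SUV39H2 gave 0.00908 in GSTA4 against GFP and LMNA -0.0466 in GSTA4 against WT. With all libraries these were -0.0214 and 0.0173. With single libraries left out, ranges that crossed 0 were, for SUV39H2, -0.13 to 0.0932 in GFP against WT, -0.26 to 0.10 in GSTA4 against GFP and -0.29 to 0.075 in GSTA4 against WT. For CBX3 they were -0.0385 to 0.0211 in GFP against WT and -0.000133 to 0.0532 in GSTA4 against WT, for CBX1 -0.0112 to 0.0669 in GSTA4 against GFP, for LMNA -0.0426 to 0.0629 in GSTA4 against WT and for EZH2 -0.0137 to 0.13 in OSK against GFP. The cause was not tested. Same-numbered libraries of different groups had deviations that correlated at -0.0282 to 0.183. The 3 values over 0.1 were those of WT replicate 1 with replicate 1 of GFP, GSTA4 and OSK (0.181, 0.183 and 0.151). Differently numbered libraries were not compared, so whether replicate numbers pair the samples was not tested. With the replicate number as a block, 4 members were called in GFP against WT, 2 in GSTA4 against GFP and 2 in GSTA4 against WT, and for OSK 7, 7 and 9 against GFP, GSTA4 and WT. Depth limits LMNB1, SUV39H1 and SUV39H2 most, with 39 to 67 reads of LMNB1 in WT and 40 to 154 of the other two in any library.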

Other observations

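Of 9 other HMG genes, 5 were higher and 4 lower in OSK against GFP (23.1% and 22.8% of all tested genes were called in these directions). HMGN3, a nucleosome-binding protein gene, had 76.4 CPM ± 6.16 in OSK, 28.6 ± 1.23 in GSTA4, 26.8 ± 2.73 in GFP and 26.5 ± 2.81 in WT (n = 3 each), a log2 fold change of 1.51 in OSK against GFP (edgeR adjusted p 3.86e-11). HMGB3 fell by 0.81 there (adjusted p 2.14e-07) and HMGN1 by 0.58 (adjusted p 3.8e-07), where HMGB2 rose by 0.90. The 1 pseudogene named for HMGB2 held reads equal to 0.0445% of those of HMGB2. Reads of copies of the other HMG genes, which have many, were not counted, so the placing of shared reads is uncertain. HMGA1, an architectural protein gene, was highest in GSTA4, at 161 CPM ± 8.10 beside 98.8 ± 1.94 in GFP, a rise of 0.71 (adjusted p 3.29e-08).

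Of 16 genes of Polycomb repressive complex 1, 4 were higher and 5 lower in OSK against GFP (23.1% and 22.8% of all tested genes), and 4 higher and 2 lower in GSTA4 against GFP (14.7% and 14.6%). PHC1 fell by 0.82 in OSK and by 0.25 in GSTA4, each against GFP (adjusted p 5.94e-08 and 0.0235). PCGF2 fell by 0.51 in OSK against GFP (adjusted p 2.88e-05). CBX2 fell by 0.57 in GSTA4 against GFP (adjusted p 0.0211), and by 0.76 in GFP against WT (adjusted p 0.00236).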
